A study of Sus scrofa with 12 samples.

Results

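The liver genes that build lipoprotein particles, break down their lipids and take them up were compared between Jinhua (JH) and Landrace (LD) pigs. The 9 genes were chosen by symbol, and their rows were taken from the 6 mRNA tables by an exact match. They were APOB, MTTP, APOE, APOH, LIPC, LPL, SORT1, LRP1 and VLDLR. Of these, 8 had a row among the 31694 rows of each table, and 7 had enough signal to be tested together with 12993 genes in all. JH, a Chinese fat-type breed, formed the experimental group, and LD, a lean commercial breed, formed the control group. Each breed was represented by 3 uncastrated males of 70 days of age, and the liver of each pig gave 1 mRNA library and 1 small RNA library. The labels name no treatment or genetic change. Breed was the only labelled difference, so any further difference between these pigs, such as litter or farm, cannot be told apart from breed. P-values set the difference between the breeds against the spread among the pigs of a breed. That spread was estimated partly from the other genes.

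The liver secretes triglyceride as very low density lipoprotein. The particle is built around 1 molecule of apolipoprotein B in the endoplasmic reticulum, where the microsomal transfer protein encoded by MTTP loads lipid onto it, and it leaves the endoplasmic reticulum in COPII carriers. In the blood, lipoprotein lipase and hepatic lipase hydrolyse the lipids of the particle. The remnant gathers apolipoprotein E and returns to the liver through endocytic receptors, helped by heparan sulfate on the cell surface. Sortilin, encoded by SORT1, binds apolipoprotein B in the Golgi and can route it to secretion or to the lysosome.

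The hepatocyte genes for lipid loading, apolipoprotein E, apolipoprotein H and hepatic lipase showed no called difference between the breeds. The uptake receptors LRP1 and VLDLR and the sorting receptor SORT1 were lower in every JH liver than in any LD liver, by close to a factor of 2, but none of them passed the threshold after adjustment. A called gene had a p below 0.05 after Benjamini-Hochberg adjustment and differed by more than 1 on the log2 scale. With limma, 0 of the 7 tested genes were called, and 2.39% of all tested genes were. At an unadjusted p below 0.05, 3 of the 7 stood out, against 17.9% of all tested genes. All 3 were lower in JH, a direction held at that p by 9.51% of all tested genes. The test with voom in limma, run on the recovered reads of 6 of the genes, also called 0. The breeds did not overlap in 4 of the 7 genes, against 23.4% of all tested genes. JH was above LD in 1 gene (10.8% of all tested genes) and below LD in 3 (12.5%). The fitted difference, JH over LD on the log2 scale, was above 0 in 2 genes and below 0 in 5, with a median of -0.17, where the median over all tested genes was 0.04.

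Levels were read as RPKM, in which reads are scaled to the length of the gene and to the total of the library, which allows a comparison between genes. By the mean of the 6 libraries, the level decreased in the order APOE, APOH, MTTP, LIPC, LRP1, VLDLR and SORT1. APOE stood at a mean of 16284 RPKM and SORT1 at 2.04 RPKM. The ranges of MTTP and LIPC overlapped in both breeds, so these neighbours could not be ordered. LRP1 and VLDLR, and VLDLR and SORT1, overlapped in JH but not in LD. The other neighbours were apart in both breeds. APOH varied least, with the highest library at 1.27 times the lowest. SORT1 varied most, at 4.39 times, and was also counted from the fewest reads.

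**Figure D1:**
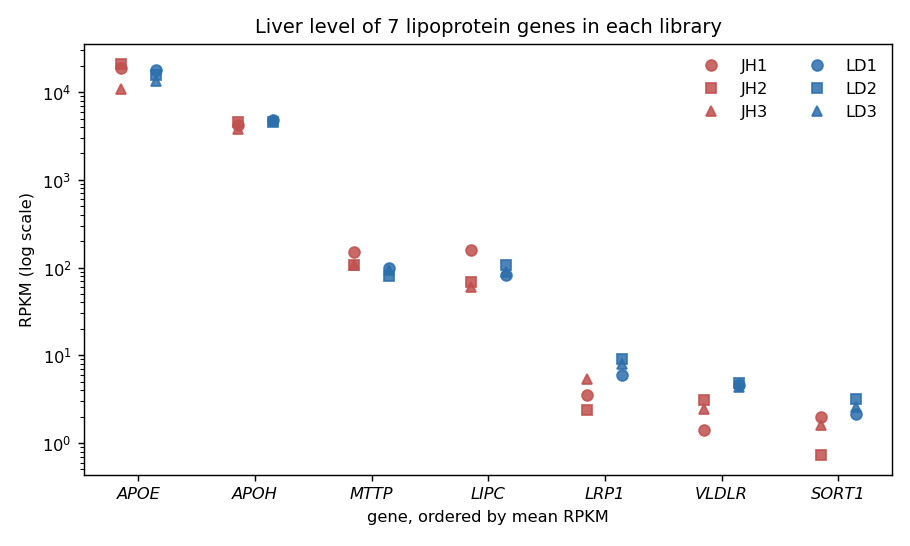
Level of the 7 tested genes in each liver, in RPKM on a log axis, with 1 point per library, red for JH and blue for LD (n = 3 pigs per breed). APOE and APOH lie highest, MTTP and LIPC in the middle, and LRP1, VLDLR and SORT1 lowest, where all JH points lie below the LD points.

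APOB itself could not be measured. It encodes the structural protein of very low density lipoprotein and is among the most abundant liver transcripts, yet it was listed at 0 in all 6 libraries. In all, 12080 of the 31694 rows were listed at 0 in all 6 libraries. Among 24 genes used by nearly every cell, a list written after the APOB value was seen, HPRT1, B2M and SDHA were listed at 0 as well. A value of 0 in these tables can therefore not be read as the absence of the transcript, and no level or fold change is given for APOB. LPL, the lipase of muscle and fat capillaries, was not analysed here, since no row of the tables used carries that symbol.

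MTTP, which transfers triglyceride onto apolipoprotein B, was measured at 151, 107 and 107 RPKM in JH1, JH2 and JH3. In LD1, LD2 and LD3 it stood at 99.7, 79.5 and 94.3 RPKM. Every JH liver was above every LD liver, and JH1 stood well above the rest. The means were 121 ± 25.3 RPKM in JH and 91.2 ± 10.5 RPKM in LD (SD, n = 3). The log2 fold change of 0.40 (SE 0.25, 95% interval -0.15 to 0.95) did not pass the limma test (adjusted p = 0.438). Between 2456 and 3385 reads stood behind each value.

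SORT1 was measured at 1.96, 0.727 and 1.60 RPKM in JH and at 2.17, 3.19 and 2.56 RPKM in LD. All JH livers were below all LD livers, and JH2 was the lowest. The means were 1.43 ± 0.636 and 2.64 ± 0.514 RPKM (SD, n = 3). In limma the log2 fold change was -0.93 (SE 0.39, 95% interval -1.80 to -0.05), with an adjusted p of 0.254. The depth behind this gene was small, at 15 to 67 reads. For JH2 the 15 reads gave an exact Poisson interval of 0.407 to 1.20 RPKM, which covers counting error only. Without JH2 the log2 fold change was -0.53.

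The other genes of assembly and export were taken from a list of 16, of which 10 had a row and 9 were tested. SEC23A rose in JH, and no other gene of the list was called in either direction. Of all tested genes, 1.02% were called higher in JH. SEC23A encodes the COPII coat subunit that drives budding from the endoplasmic reticulum. It stood at 41.3, 32.4 and 24.6 RPKM in JH and at 12.6, 12.0 and 12.3 RPKM in LD. The 3 LD livers were nearly equal and all JH livers were above them. JH exceeded LD by 1.38 on the log2 scale (SE 0.26, limma adjusted p = 0.0336), a 2.60-fold higher level. The call was lost without JH1, JH2, LD1, LD2 or LD3, with adjusted p between 0.0849 and 0.114.

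SAR1B, the small GTPase that recruits the COPII coat, was measured at 186, 214 and 142 RPKM in JH and at 134, 107 and 114 RPKM in LD. Again every JH liver was above every LD liver. The log2 fold change of 0.60 (SE 0.25) was not called (limma adjusted p = 0.254). DGAT2, an enzyme of triglyceride synthesis, was spread widely in JH, at 146 RPKM in JH1 and at 61.0 and 56.9 RPKM in JH2 and JH3. The LD livers, at 79.6, 71.3 and 61.7 RPKM, lay within that range, and the log2 fold change was 0.18. MIA2, a cargo receptor for large particles at the exit sites, had a log2 fold change of -0.36 and was not called. Over the 9 tested genes, 6 log2 fold changes were above 0 and 3 below, with a median of 0.15. Among all tested genes, 6878 were above 0 and 6115 below.

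Among the apolipoproteins, both chosen genes overlapped between the breeds and neither was called. APOE, the ligand that remnant receptors bind, stood at 18889, 21163 and 10741 RPKM in JH and at 17654, 15800 and 13454 RPKM in LD. JH held both the highest and the lowest value. JH3, the lowest, was also the library with the most 18S ribosomal RNA. RN18S stood at 5991, 1570 and 62257 RPKM in JH1, JH2 and JH3. In LD1, LD2 and LD3 it stood at 7309, 2108 and 20160 RPKM, the same order of numbers as in JH. RN18S counts in the total that RPKM is divided by, and its part in the result was not tested. The log2 fold change of APOE was 0.06 (SE 0.32, 95% interval -0.67 to 0.80), with an adjusted p of 0.939 in limma. Its sign turned under quantile normalization, to -0.21.

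APOH encodes apolipoprotein H, a plasma protein that binds anionic phospholipid and is carried partly on lipoproteins. It was measured at 4231, 4605 and 3831 RPKM in JH and at 4857, 4510 and 4861 RPKM in LD. The breeds overlapped through JH2 and LD2. The means were 4222 ± 387 and 4743 ± 202 RPKM (SD, n = 3), and the log2 fold change was -0.17 (SE 0.24, 95% interval -0.71 to 0.37, limma adjusted p = 0.754). With 29192 to 46209 reads per library, APOH was the most deeply counted of the 6 genes whose reads were recovered.

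Of a list of 18 apolipoproteins, 13 were tested and 2, APOA4 and APOA5, rose in JH, while 0 were called lower. Of all tested genes, 2.39% were called and 1.02% were called higher in JH. Both genes lie outside the 9 and were far more different between the breeds than any of them. APOA4 stood at 6705, 1911 and 846 RPKM in JH and at 3.04, 3.10 and 19.6 RPKM in LD. Its log2 fold change was 8.57 (limma adjusted p = 0.00203). APOA5, which promotes lipolysis by lipoprotein lipase, stood at 2439, 1032 and 605 RPKM in JH and at 121, 83.9 and 115 RPKM in LD (log2 fold change 3.45, SE 0.45, limma adjusted p = 0.00784). In both genes JH1 was highest and JH3 lowest within JH.

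APOC2, the activator of lipoprotein lipase, was measured at 5355, 4945 and 2282 RPKM in JH and at 1664, 2490 and 1456 RPKM in LD. JH3 lay within the LD range, and the log2 fold change of 1.11 (SE 0.38) was not called (limma adjusted p = 0.171). APOA1, the main protein of high density lipoprotein, had a log2 fold change of 0.90 (SE 0.34), also without a call (limma adjusted p = 0.203). Its JH livers, at 22277, 16075 and 10301 RPKM, were above its LD livers, at 7613, 10116 and 7399 RPKM, but JH3 only narrowly. SAA4, a serum amyloid A protein of high density lipoprotein, was listed at 0 in JH2, so no fold is given. The other values were 48.8 and 17.9 RPKM in JH and 210, 92.6 and 139 RPKM in LD. They are uncertain, since reads of related family members may be shared, which was not tested. Over the 13 tested genes, 8 log2 fold changes were above 0 and 5 below, with a median of 0.08. Among all tested genes, 6878 were above 0 and 6115 below.

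LIPC encodes hepatic lipase, which hydrolyses lipids of remnants and of high density lipoprotein in the liver sinusoid. It was measured at 157, 67.7 and 60.1 RPKM in JH and at 83.2, 106 and 88.6 RPKM in LD. JH1 was the highest of the 6 livers and the other JH livers were the lowest, so the JH range enclosed the LD range. The means of 94.98 ± 54.0 and 92.6 ± 11.9 RPKM (SD, n = 3) were close to each other. Hepatic lipase had a log2 fold change of -0.10 (SE 0.36, 95% interval -0.92 to 0.72, limma adjusted p = 0.918). It ranged from -0.53 to 0.16 when single livers were left out, and was -0.53 without JH1. Between 676 and 1314 reads stood behind each value.

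Of 21 lipases and their regulators, 17 were tested. APOA5, already given among the apolipoproteins, was the 1 gene called, and 0 were called lower, where 2.39% of all tested genes were called. LCAT, the enzyme that esterifies plasma cholesterol, was listed at 0 in all libraries, like APOB. ANGPTL4, a secreted inhibitor of lipoprotein lipase, stood at 135, 135 and 136 RPKM in JH and at 25.3, 72.8 and 65.7 RPKM in LD. The JH livers were nearly equal and above all LD livers. With a log2 fold change of 1.45 (SE 0.38), the adjusted p in limma was 0.0939. CES1, a carboxylesterase that hydrolyses lipid esters, varied within both breeds, from 35.5 to 131 RPKM in JH and from 5.07 to 72.0 RPKM in LD. The difference of 1.57 on the log2 scale (SE 0.93) was not called (limma adjusted p = 0.418) and was 0.35 without LD3, the lowest liver, and reads of related carboxylesterases may be shared. Over the 17 tested genes, 9 log2 fold changes were above 0 and 8 below, with a median of 0.04. Among all tested genes, 6878 were above 0 and 6115 below.

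The receptors gave the largest differences among the chosen genes. LRP1, a large endocytic receptor for remnants and many other ligands, was measured at 3.56, 2.36 and 5.37 RPKM in JH. In LD it stood at 5.91, 9.16 and 7.94 RPKM. JH3, the highest JH liver, came close to LD1, the lowest LD liver, without reaching it. The means were 3.76 ± 1.52 and 7.67 ± 1.64 RPKM (SD, n = 3), and the log2 fold change was -1.06 (SE 0.33, 95% interval -1.82 to -0.31). The LD level was 2.09 times the JH level on the fitted scale, with an unadjusted p of 0.0109 and an adjusted p of 0.145 in limma. Each value came from 158 to 625 reads.

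VLDLR encodes the very low density lipoprotein receptor, which binds particles rich in apolipoprotein E and is usually low in liver. It was measured at 1.40, 3.07 and 2.42 RPKM in JH and at 4.61, 4.82 and 4.36 RPKM in LD. The LD livers were tightly grouped and the JH livers were spread below them. The means were 2.30 ± 0.842 and 4.60 ± 0.232 RPKM (SD, n = 3). This gave a log2 fold change of -1.04 (SE 0.32, 95% interval -1.75 to -0.32), with an unadjusted p of 0.00925 and an adjusted p of 0.135 in limma. The LD level was 2.05 times the JH level. Between 27 and 128 reads stood behind each value, with the fewest in JH1. Without JH1 the log2 fold change was -0.73.

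The list of receptors and uptake genes held 17 genes, all with a row, of which 13 were tested. LRP2 and LRP10 were listed at 0 in all libraries. None of the 13 was called by limma, against 2.39% of all tested genes, or by voom on recovered reads. LRP1, VLDLR and DAB2 were the 3 of 13 with an unadjusted p below 0.05 in limma, all lower in JH. Of all tested genes, 17.9% were below that p, and 9.51% were below it and lower in JH. In 10 of the 13 the log2 fold change was below 0, with a median of -0.51, against 6115 of the 12993 tested genes and a median of 0.04. In 5 of the 13 all JH livers were below all LD livers, as in 12.5% of all tested genes. Without LRP1 and VLDLR, 8 of 11 were below 0 and the median was -0.46.

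DAB2, a clathrin adaptor that carries lipoprotein receptors into the cell, stood at 5.35, 4.93 and 4.57 RPKM in JH and at 7.65, 9.62 and 7.26 RPKM in LD. All JH livers were below all LD livers, with a log2 fold change of -0.71 (SE 0.24, limma adjusted p = 0.168). LSR, a receptor of triglyceride-rich particles, overlapped between the breeds and had a log2 fold change of -0.72 (SE 0.39, limma adjusted p = 0.373). CD36, a scavenger receptor that also takes up fatty acids, overlapped as well, at 0.564 to 0.715 RPKM in JH and 0.251 to 0.586 RPKM in LD, from 10 to 28 reads. Its difference of 0.70 on the log2 scale (SE 0.51) was not called (limma adjusted p = 0.508). JH3 was the JH liver nearest to LD for LRP1. Without JH3, the adjusted p of LRP1 in limma was 0.0609, and the calls over all genes rose from 310 to 406. Without any other single liver, the adjusted p of LRP1 in limma was 0.210 to 0.344.

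**Figure D2:**
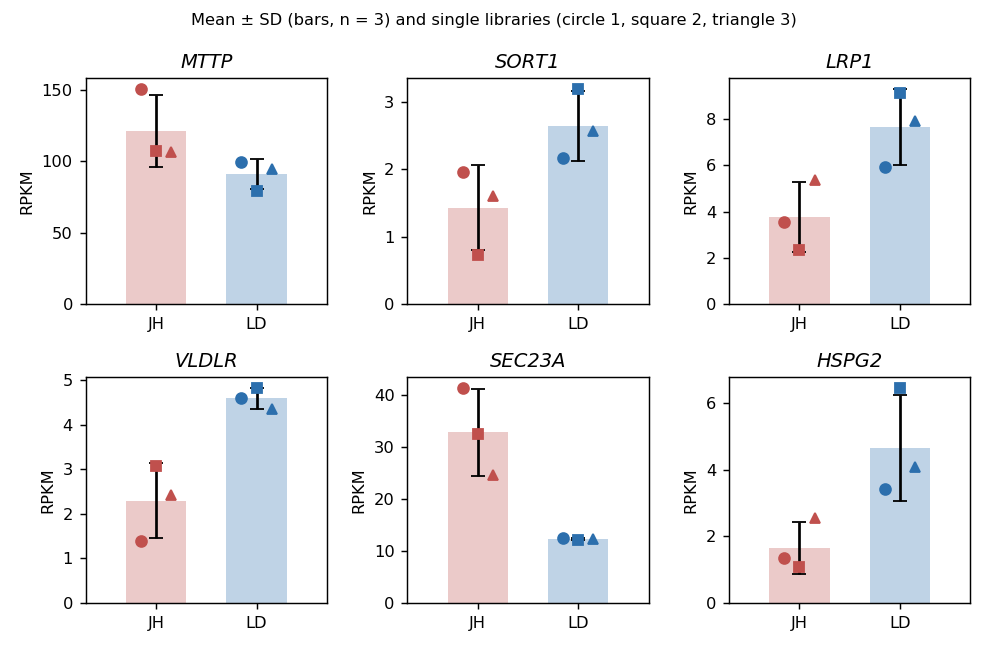
RPKM of MTTP, SORT1, LRP1, VLDLR, SEC23A and HSPG2 on linear axes that start at 0, with bars at the breed mean, error bars of 1 SD (n = 3 pigs) and 1 point per liver. MTTP and SEC23A lie higher in JH without overlap, and SORT1, LRP1, VLDLR and HSPG2 lie lower in JH without overlap.

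**Figure D3:**
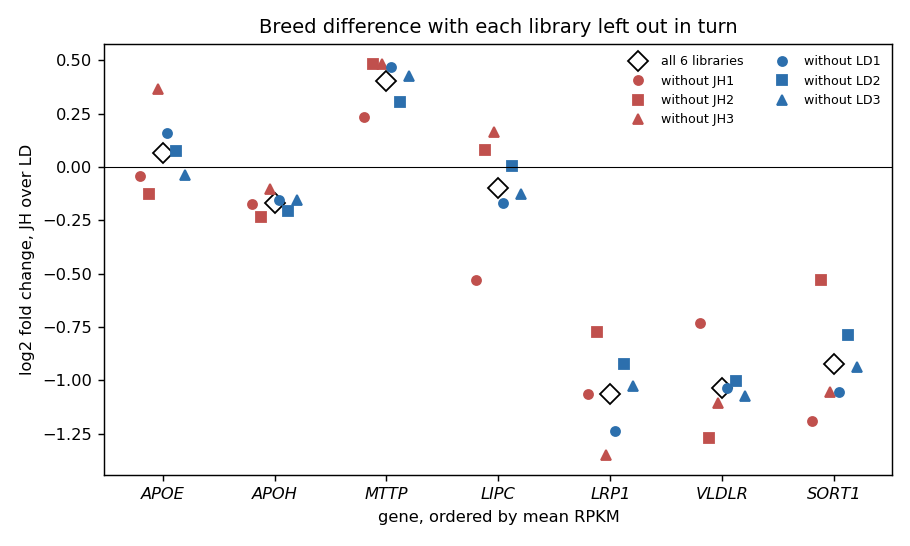
Log2 fold change of JH over LD for the 7 tested genes, refitted with each of the 6 livers left out in turn, beside the value from all livers. LRP1 (-1.35 to -0.77), VLDLR (-1.27 to -0.73) and SORT1 (-1.19 to -0.53) stayed below 0, MTTP (0.24 to 0.48) stayed above 0, and APOE and LIPC crossed 0.

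Heparan sulfate proteoglycans hold remnants at the hepatocyte surface and act beside LRP1. Of 15 such genes and their modifying enzymes, 13 were tested and 0 were called by limma, against 2.39% of all tested genes. At an unadjusted p below 0.05 there were 3 of 13, all lower in JH, against 17.9% of all tested genes at that p and 9.51% lower in JH. Voom on recovered reads called 1, HSPG2. HSPG2, which encodes the basement membrane proteoglycan perlecan, stood at 1.36, 1.07 and 2.55 RPKM in JH and at 3.43, 6.46 and 4.09 RPKM in LD. All JH livers were below all LD livers, with JH3 the nearest, as for LRP1, and the log2 fold change was -1.48 (SE 0.38, limma adjusted p = 0.0885). HSPG2 was called by limma without JH3 (adjusted p = 0.0390). It was not called without any other single liver (limma adjusted p of 0.157 to 0.252).

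GLCE, an epimerase of heparan sulfate synthesis, had a log2 fold change of -0.79 (limma adjusted p = 0.165). Its JH livers, at 3.27, 2.92 and 4.35 RPKM, were below its LD livers, at 6.13, 5.16 and 7.02 RPKM. SULF2, a sulfatase that trims sulfate from heparan sulfate, was near the detection limit at 0.276 to 0.550 RPKM in JH and 0.601 to 2.29 RPKM in LD. The difference of -1.47 on the log2 scale was not called (limma adjusted p = 0.202). SDC1, SDC2 and SDC4, proteoglycan genes of the same list, had JH means of 60.9, 158 and 50.1 RPKM. Their LD means were 55.3, 157 and 52.6 RPKM. The breeds overlapped in all of them, with log2 fold changes of 0.19, -0.004 and -0.06, and none was called. Over the 13 tested genes, 4 log2 fold changes were above 0 and 9 below, with a median of -0.16. Among all tested genes, 6878 were above 0 and 6115 below.

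Over the 5 lists together, 83 distinct genes were looked up and 62 were tested, of which 55 lie outside the 9. SEC23A, APOA4 and APOA5 were the 3 called of 62, against 2.39% of all tested genes. An unadjusted p below 0.05 was held by 17 of 62, against 17.9% of all tested genes.

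**Figure D4:**
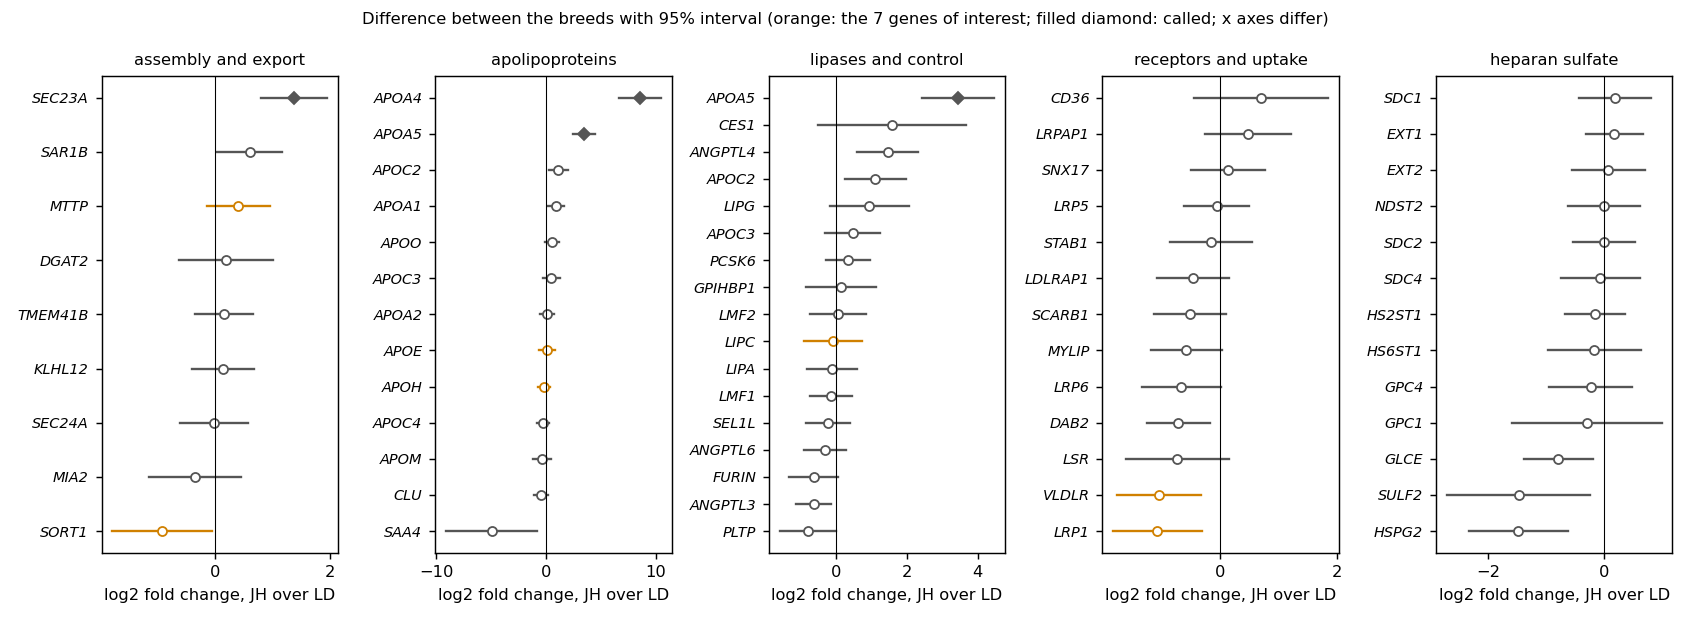
Log2 fold change of JH over LD with 95% intervals from limma for the tested genes of the 5 lists, 1 panel per list with its own scale (n = 3 pigs per breed). Orange marks the chosen genes, filled diamonds mark called genes, and the intervals of LRP1, VLDLR and SORT1 lie below 0 while those of MTTP, APOE, APOH and LIPC include 0.

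LRP1 had the largest absolute log2 fold change of the 7. The genes whose pattern over the 6 livers was nearest to it were PDGFRA, a growth factor receptor of mesenchymal cells, PTPN3, a protein tyrosine phosphatase, and LRP4, a receptor related to LRP1. Their distances from LRP1 on the mean-centred log2 scale were 0.283, 0.311 and 0.314, where the median gene lay at 2.01. Their own log2 fold changes were -0.93, -0.98 and -1.28. These genes were picked as the 3 smallest distances, so small distances and fold changes like that of LRP1 follow from the choice. None of the 3 was called. All were low, with JH means of 0.545, 0.853 and 0.380 RPKM.

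LRP1 is made in stellate cells, macrophages and endothelium as well as in hepatocytes, and VLDLR in endothelium, so markers of these cells were read from the same libraries. In bulk tissue, fewer cells of a type and less RNA per cell cannot be told apart. All 8 stellate cell markers had a log2 fold change below 0, with a median of -1.60, and COL1A1 (-2.77), COL3A1 (-1.75) and LRAT (-1.72) fell in JH. Their summed level was 53.4 to 74.1 RPKM in JH and 155 to 289 RPKM in LD. Of all tested genes, 2.39% were called, and 6115 of 12993 had a log2 fold change below 0. Of 6 endothelial markers 5 were below 0 and 0 were called, with sums of 55.5 to 59.8 RPKM in JH and 78.7 to 84.4 RPKM in LD. Of 7 macrophage markers 4 were above 0 and 0 were called, and the sums overlapped, at 875 to 2044 RPKM in JH and 1302 to 1519 RPKM in LD. CD163 was listed at 0 throughout. The part of these cells in the lower values of LRP1, VLDLR and HSPG2 was not tested.

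The tissue matched its label. All 8 hepatocyte markers were tested and 0 were called, against 2.39% of all tested genes. Their sum, which albumin dominated, was lower in JH (42653 to 47597 RPKM) than in LD (62611 to 78408 RPKM). In 6 of the 8 the log2 fold change was below 0, with a median of -0.30. All JH livers were below all LD livers in 4 of the 8, against 12.5% of all tested genes. An unadjusted p below 0.05 in limma was held by 3, all lower in JH, against 9.51% of all tested genes. Fat markers were low where they were measured, with ADIPOQ listed at 0 in 5 libraries. Their sums were 5.06 to 13.7 RPKM in JH and 5.17 to 8.93 RPKM in LD. No muscle marker reached the level needed for the test. LEP and the muscle markers MYH7, CKM and TNNT3 were listed at 0 in all 6 libraries, which cannot be read as absence. Of 6 lymphocyte markers 0 were called, with sums of 20.4 to 77.7 RPKM in JH, highest in JH2, and 27.5 to 32.8 RPKM in LD. The bile duct marker EPCAM (log2 fold change -1.55) and the red blood cell marker HBB (-1.39) fell in JH. The summed bile duct level was 1.55 to 2.13 RPKM in JH and 5.24 to 9.64 RPKM in LD, and the summed red blood cell level was 92.3 to 124 RPKM in JH and 215 to 398 RPKM in LD. Their part in the results was not tested.

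The total behind the RPKM of a library, inferred from the RPKM steps, was 5744909 to 7914514 reads, lowest in JH1. These totals were below the clean mRNA reads that the paper gives for each library. Gene length was inferred from the same steps, as the smallest length that gave whole reads, and may be shorter than the true length. This inferred length moved with the fold change. The median log2 fold change was 0.12 over the 4327 shortest genes, 0.10 over the 4325 of middle length and -0.06 over the 4327 longest. LRP1 (8645 bases), VLDLR (3363 bases) and MTTP (3911 bases) were among the longest and SORT1 (2661 bases) among the middle. The part of gene length in their fold changes was not tested.

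The small RNA libraries of the same livers were read for miRNAs known to act on genes of this pathway. MiR-30c is known to target MTTP, and miR-29 and miR-27 are known to target LPL. Of 10 miRNAs from these families, 1, miR-29b, passed the study's thresholds, which ask for an unadjusted p below 0.05 and a difference of more than 1 on the log2 scale, against 12.4% of the 241 tested miRNAs. The median log2 fold change of all tested miRNAs was -0.30, so the values below are to be read against that shift. Values are RPM, in which reads are scaled to the clean reads of the library. The totals inferred from the RPM steps were 10672376 to 13932322 reads per library. They are uncertain, since the smallest value above 0 came to 10 such reads in each library.

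MiR-30c-5p was measured at 1594, 732 and 1309 RPM in JH and at 1476, 1056 and 1404 RPM in LD. The breeds overlapped, and the log2 fold change was -0.17 (SE 0.30, 95% interval -0.84 to 0.49, limma adjusted p = 0.706). JH1 held the highest value of both miR-30c-5p and MTTP. The 5 tested members of the miR-30 family had log2 fold changes of -0.41 to -0.17, of which all but that of miR-30a-5p were above 0 when libraries were scaled to their median, and 0 were called. MiR-29b rose in JH, at 46.2, 36.4 and 24.8 RPM against 12.8, 9.83 and 13.9 RPM in LD. All JH livers were above all LD livers, with a log2 fold change of 1.49 (SE 0.27, limma adjusted p = 0.00782). MiR-29a and miR-29c, which share its seed, had log2 fold changes of 0.11 and -0.15 and were not called. MiR-27a and miR-27b-3p, at -0.01 and -0.31, were not called either. MiR-29c, miR-27a and miR-27b-3p were above 0 under median scaling. The LPL transcript that miR-29 is known to target was not analysed here.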

How the data were processed

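Liver mRNA and small RNA libraries of 3 JH and 3 LD pigs were grouped by their public labels. For mRNA, the authors aligned 50 base reads with TopHat2 2.0.13, used gfold for counting and deposited RPKM values. For miRNA, the authors deposited RPM values, scaled to clean reads.

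The breeds were compared with limma 3.58.1 (R 4.3.3) after log2 transformation, with 0.1 added to RPKM and 0.5 added to RPM. Genes had to reach 0.5 RPKM, and miRNAs 1 RPM, in 3 or more libraries. Fold changes on this scale understate those of low genes. The study's own mRNA test needs read counts, so limma was used. P-values were adjusted by Benjamini-Hochberg over all tested genes. Whole reads were recovered from the RPKM steps for 17923 of 19614 genes above 0, not for APOE. Intervals from reads cover counting error only, since reads can copy the same molecule. Scripts were tested on simulated data.

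The 9 genes, the lists and the tests were chosen with earlier results of these data known. Named genes were the 9, APOA4, all called list genes and the 3 list genes of largest fold change in each list. The 3 profiles nearest to the most different of the 9 were also named. SDC1, SDC2 and SDC4 were added after the results were seen. Marker genes, and genes listed at 0, are named beside the results they touch. Alternatives covered the pseudocount, filter, scaling, replicate block, single livers left out and voom on recovered reads. Voom on recovered miRNA reads was chosen after seeing the data. A few further genes of the receptor list are not reported here and were left out of its counts.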

Additional observations from a re-analysis of the deposited data

How the results depend on the processing

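None of the 7 genes was called under any alternative run, and the lowest adjusted p among them ranged from 0.0609 without JH3 to 0.301 without LD2. The number at an unadjusted p below 0.05 was 2 or 3 throughout. The 3 called list genes became 4 with voom on recovered reads, which added HSPG2, and 2 to 5 when single livers were left out. The 5 came without JH3, which added APOC2 and HSPG2. The 2, APOA4 and APOA5, came without JH1, JH2, LD1, LD2 or LD3. APOE turned to -0.21 with quantile normalization. With single livers left out, the log2 fold changes crossed 0 for APOE (-0.13 to 0.36), LIPC (-0.53 to 0.16), DGAT2 (-0.26 to 0.42), miR-30c-5p (-0.41 to 0.15), miR-29a (-0.051 to 0.28), miR-29c (-0.35 to 0.22) and miR-27a (-0.12 to 0.11). Scaling each miRNA library to its median turned miR-30b-5p to 0.12, miR-30c-5p to 0.22, miR-30d to 0.15, miR-30e-5p to 0.16, miR-29c to 0.25, miR-27a to 0.38 and miR-27b-3p to 0.084. The causes were not tested. Over all genes, 310 calls became 199 with a pseudocount of 0.01, 200 without a filter, 340 with a pseudocount of 1, 384 with median scaling, 398 with quantile normalization, 409 with voom on recovered reads, and 79 to 406 with single livers left out. The recovered reads of the miRNAs were tested with voom in place of the planned count test, which was not run. The fewest reads stood behind SORT1, with 15 to 67 per library, and VLDLR, with 27 to 128.

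JH and LD libraries share replicate numbers, but nothing in the labels pairs the pigs. Deviations from the breed means correlated at -0.02, 0.05 and 0.18 for the numbers 1, 2 and 3 in mRNA. In miRNA they correlated at -0.07, -0.32 and -0.09, and the numbers were not taken as pairs. In mRNA, JH3 correlated best with LD3, while JH1 and JH2 correlated best with an LD library of another number. RN18S was lowest in number 2 and highest in number 3 in both breeds. The labels do not say whether libraries of the same number were handled together, and this was not tested. With the replicate number as a block, 0 of the 7 genes, 3 list genes and 1 miRNA were called, and the calls over all genes went from 310 to 253.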
